A study of Mus musculus with 6 samples.

Results

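The simple tandem repeats are the names of the repeat table written as a short motif in brackets followed by n, such as (CA)n. Each name gathers the reads of every annotated copy of that motif in the mouse genome. A name was kept when its raw counts summed to 12 or more over the 6 libraries. Of 4261 repeat names 2861 had this form, and 266 of these were kept. Another 2564 were at 0 in every library and 31 held fewer than 12 counts. The lowest names kept, among them (TTATG)n, had a summed count of 13. The highest names left out, among them (AAATG)n, had 10. The 266 names held 4 motifs of 1 base, 6 of 2 bases, 20 of 3, 58 of 4, 146 of 5 and 32 of 6 bases. All 1119 names with a motif of more than 6 bases were at 0.

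The study sequenced RNA of mouse primary pulmonary fibroblasts, the connective tissue cells of the lung grown in culture. Of the 6 libraries, 3 are labelled quiescent (PF-Quie) and 3 senescent after Nutlin 3a (PF-nSene), a compound that keeps Mdm2 from binding p53. Per the labels' protocols the cells were cultured with 10% serum at 5% oxygen. The induction text lists RO3306, a Cdk1 inhibitor, for 16 h, then Nutlin 3a for 48 h and the Plk1 inhibitor BI-2536 at 100 nM, within 12 days in all. This text also stands on the quiescent samples, no genotype, strain or animal age is named, and the sources used here do not give how quiescence was brought about. Separate cultures or animals are not stated for the replicates, and the p-values therefore cover no more than the spread among these 6 samples, technical spread included. Each group is 1 kind of cultured cell, which limits it as a model of lung tissue.

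Simple tandem repeats, or microsatellites, are runs of a short unit copied head to tail. They lengthen and shorten when the polymerase slips during replication, a change that mismatch repair normally removes. Many lie in introns and untranslated regions, so that total RNA carries them as part of longer transcripts, and some longer runs of triplets cause neurological disease. The telomere is built of TTAGGG units that shelterin proteins coat and telomerase extends.

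The motif units that the results turn on are shown as the first bases of an uninterrupted tandem run, in lower case with the first unit in capitals. The directions given are those on the gene-table scaling described further on, and the 3 reverse complements listed as falling did not pass on the repeat table's own scaling. The motifs were chosen to show the most abundant dinucleotides, the names with large differences, and their reverse complements, which are listed under separate names in the table.
(CA)n, the most abundant name: CAcacacacacacacacacacaca
(TG)n, its reverse complement: TGtgtgtgtgtgtgtgtgtgtgtg
(G)n, the largest increase by the naming rule: Gggggggggggggggggggggggg
(C)n, its reverse complement: Cccccccccccccccccccccccc
(CGAG)n, a tetranucleotide that rose: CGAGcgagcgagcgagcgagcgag
(CTCG)n, its reverse complement, which fell: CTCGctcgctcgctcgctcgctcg
(TCTCCC)n, a hexanucleotide that rose: TCTCCCtctccctctccctctccc
(GGGAGA)n, its reverse complement, which fell: GGGAGAgggagagggagagggaga
(TTTC)n, a tetranucleotide that rose: TTTCtttctttctttctttctttc
(GAAA)n, its reverse complement, which fell: GAAAgaaagaaagaaagaaagaaa
(ATAAG)n, the largest decrease by the naming rule: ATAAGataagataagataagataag
(TTAGGG)n, the telomeric motif: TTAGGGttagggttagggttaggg
(CCCTAA)n, its reverse complement: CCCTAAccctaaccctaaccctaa
The 266 names come from 146 motif units when rotations and the reverse complement of a motif are counted as 1 unit. Of these units 120 were named on both strands and 26 by 1 name.

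Gene counts per library ran from 93736593 to 109706025, of which 18219831 to 21386546 lay outside the ribosomal rows. Repeat counts outside the ribosomal RNA names ran from 5860605 to 7247914, and 543220 to 750162 of them belonged to the simple repeats, a share of 9.21% to 11.5%. All 12 fibroblast markers averaged over 1 CPM, the normalised count scaled to library size, while 1 of 7 leukocyte markers and 0 of 6 epithelial markers did. Summed smooth muscle and pericyte markers ran from 24.3 to 29.1 CPM in the quiescent and from 65.5 to 106 CPM in the senescent libraries, with 6 of 6 over 1 CPM. Leukocyte markers summed to 1.56 to 1.90 and 4.86 to 6.38 CPM in the same order. Fibroblast marker sums were lower in the senescent libraries, at 4341 to 4785 against 5023 to 5162 CPM. So were those of endothelium (3.43 to 5.00 against 5.14 to 5.67 CPM, 2 of 6 over 1 CPM) and mesothelium (2.76 to 3.70 against 5.23 to 5.99 CPM, 2 of 4 over 1 CPM). Epithelial markers summed to at most 0.320 CPM, and no marker of these lists was at 0 in all libraries. The ribosomal precursor row Rn45s took 73.9%, 73.2% and 74.5% of gene counts in the quiescent and 73.9%, 75.5% and 73.9% in the senescent libraries. These shares overlapped. On the gene-table TMM scaling described below its log2 fold change was 0.31 (adjusted p = 0.019 in edgeR's quasi-likelihood test). Whether these shifts bear on the repeats was not tested.

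Simple repeat levels were first summed over all 266 names. A level here is the CPM on the library size of the gene table after TMM scaling, which equalises the bulk of genes between libraries; it is not divided by the genomic length of the motif's copies. The sum was 6308, 6326 and 6131 CPM in the 3 quiescent libraries and 6362, 6070 and 6747 CPM in the 3 senescent ones. The groups overlapped, with senescent replicate 2 below every other library and senescent replicate 3 above. In bulk RNA a lower level in every cell and a smaller share of cells with the transcript cannot be told apart. The means were 6255 ± 108 and 6393 ± 339 CPM (SD, n = 3 each), a log2 ratio of 0.03 that became -0.27 on plain gene totals. When the library size was instead taken from the repeat table's own TMM, the log2 ratio was 0.54 and the groups did not overlap. Counts were concentrated in few names: (CA)n held 10.9% and (TG)n 9.31% of the simple repeat counts, and the 10 most abundant names held 51.2%.

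Motif classes differed within this sum. Motifs whose bases were 50% G or C, a class led by (CA)n and (TG)n, summed to 2263, 2227 and 2139 CPM in the quiescent and 1990, 1827 and 2045 CPM in the senescent libraries, a log2 ratio of -0.18 on the gene scaling and of 0.33 on the table's own TMM. The 3 other classes were higher in the senescent libraries on both of these scalings and lower on plain gene totals. Their log2 ratios on the gene scaling were 0.12 for motifs without G or C, 0.11 for those under 50% and 0.16 for those over 50%. In each of the 4 classes the 2 groups did not overlap. The share of a class among all simple repeat counts of its own library needs no scaling. The 50% class held 35.9%, 35.2% and 34.9% of the counts in the quiescent and 31.3%, 30.1% and 30.3% in the senescent libraries. The class over 50% held 28.8%, 28.6% and 29.2%, against 30.8%, 31.9% and 31.9%. Dinucleotides as a whole held 30.9%, 30.2% and 30.0%, against 27.4%, 26.5% and 26.4%. Hexanucleotides held 7.81%, 7.89% and 7.81%, against 9.20%, 9.48% and 9.07%. Name by name, in the test described below, 4 of the 32 hexanucleotides rose and 9 fell on the gene scaling. Those that rose included the abundant (TCTCCC)n and (CAAAAA)n, with log2 fold changes of 1.50 and 0.94, so few names weigh heavily on this class. The shares of the 2 groups did not overlap in any of the 4 classes whose shares are given. Shares within a library are bound to each other, since one class can gain only what others lose.

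**Figure D1:**
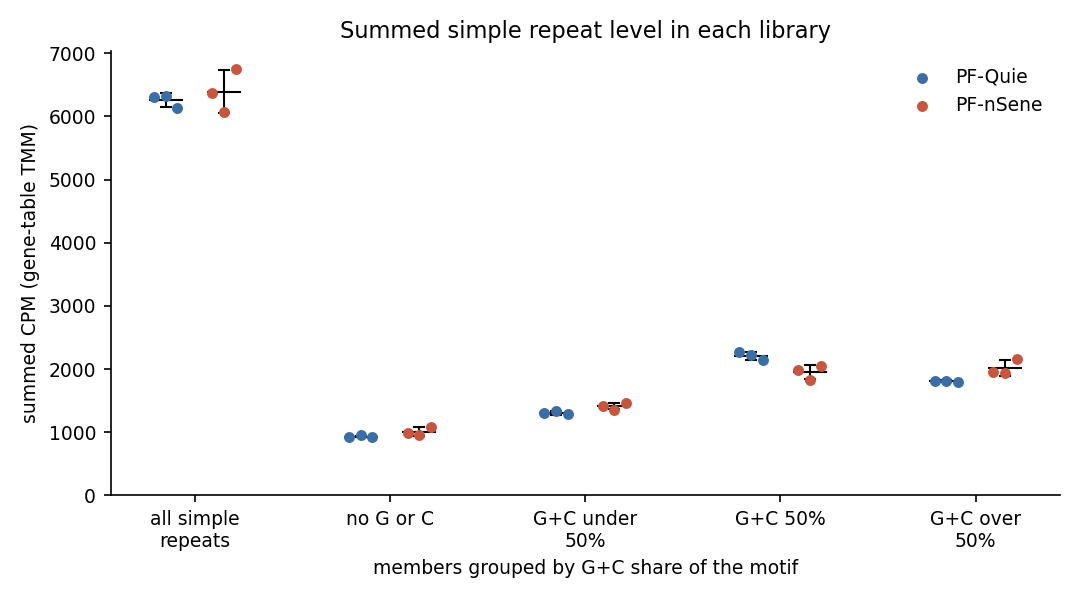
Summed simple repeat level in CPM on the gene-table TMM scaling (y axis, linear from 0) for all names and for 4 classes of motif by share of G and C (x axis). Points are libraries, bars the mean ± SD of 3; over all names the quiescent libraries, at 6131 to 6326 CPM, lay within the senescent range of 6070 to 6747 CPM, and only the 50% class was lower in the senescent libraries on this scaling (log2 ratio -0.18, but 0.33 on the repeat table's own TMM).

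The question of which names differed was then asked with edgeR's quasi-likelihood test over all 1423 repeat names with a summed count of 12 or more, at a Benjamini-Hochberg adjusted p under 0.05. On the gene scaling 35 simple repeats rose in the senescent libraries, 98 fell and 133 did not pass. These counts include 2 that rose and 25 that fell among the 87 names with a mean under 50 counts. Of these, (CGAAG)n and (CTAAG)n held all or almost all of their counts in 1 group. Other rare names among these calls may also have reached the summed count of 12 through 1 group, so calls at such depth are weak. Among all 1423 names 8.78% rose and 54.7% fell, 63.5% in either direction. The simple repeats thus had 13.2% higher and 36.8% lower, with a median log2 fold change of -0.25 against -0.50 over all tested names and -0.56 over the 1157 names that are not simple repeats. Of 10 low-complexity names 4 rose and none fell, with a median of 0.18, and of 7 satellite names 1 rose and 4 fell, with a median of -0.30 (0.21 on the repeat table's own TMM). Summed counts gave another order. Gene-scaled log2 ratios were 0.03 for simple repeats, 0.24 for low-complexity, -0.31 for satellite and 0.30 for the 1138 other tested names. On own TMM the last was 0.81, against 0.54 for simple repeats. Counts of the 1138 names were 699%, 671% and 691% of the simple repeat counts in the quiescent libraries. They were 781%, 860% and 836% in the senescent ones, a share that needs no scaling.

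The balance of these counts differed with the scaling. On the repeat table's own TMM 110 simple repeats rose and 31 fell, against 26.2% higher and 22.8% lower among all tested names (49.0% in either direction), and the medians were 0.25 and -0.01. The effective library size of the senescent relative to the quiescent group was 0.883 by the gene table and 0.629 by the repeat table. The smaller senescent library size of the repeat table's own TMM raised the log2 fold changes of the simple repeats. All 35 names that rose on the gene scaling also rose on the other one. This was largely set by that shift and is no separate support. Of the 98 that fell, 31 also fell on the other scaling, 59 did not pass and 8 rose. The 35 and 31 names called the same way by both make up 66 of the 266, and another 66 passed under neither.

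**Figure D2:**
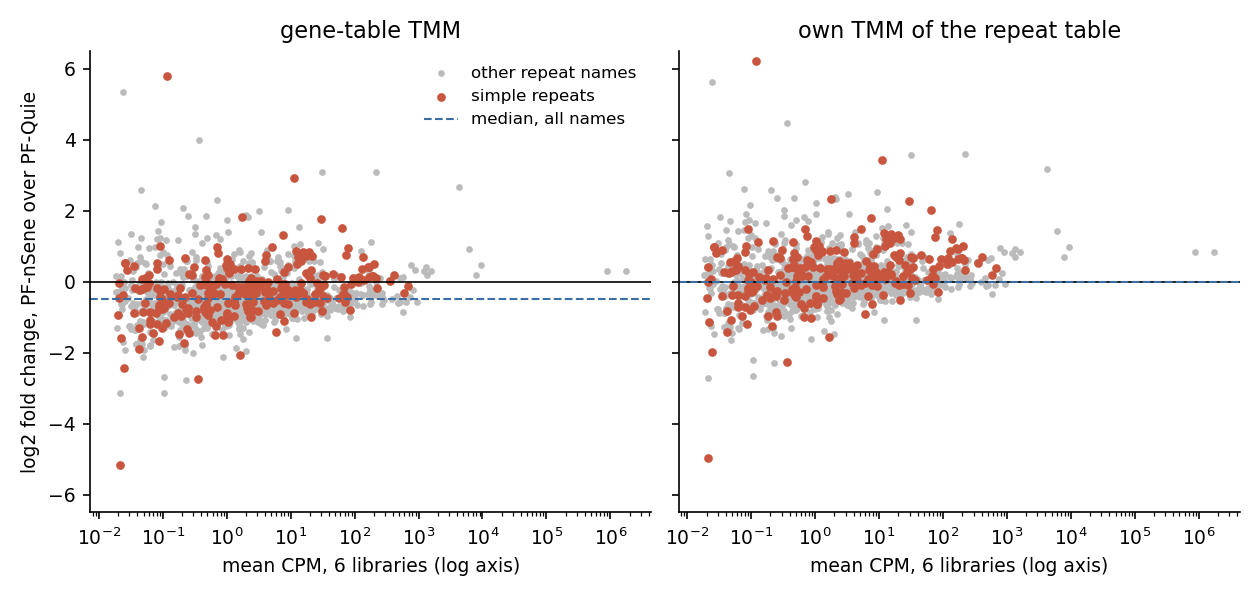
Log2 fold change of each tested repeat name, senescent over quiescent (y axis), against its mean CPM over 6 libraries (x axis, log scale), on the gene-table TMM (left) and the repeat table's own TMM (right). Simple repeats are coloured, other names grey; the dashed line is the median over all 1423 names, -0.50 on the left and -0.01 on the right.

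By motif length, the counts of names that rose and fell on the gene scaling were 1 and 0 of 4 for single bases, 0 and 1 of 6 for dinucleotides, 7 and 6 of 20 for triplets, 7 and 32 of 58 for tetranucleotides, 16 and 50 of 146 for pentanucleotides, and 4 and 9 of 32 for hexanucleotides. The medians were 0.10, -0.11, 0.10, -0.35, -0.28 and -0.13 in the same order, with no steady trend from 1 base to 6. The Spearman correlation of the fold change with motif length was -0.03 over the 266 names, which share libraries and, as strand partners, bases. On the table's own TMM the medians were 0.61, 0.40, 0.61, 0.14, 0.23 and 0.37. The counts that rose and fell there were 3 and 0, 6 and 0, 14 and 1, 21 and 8, 48 and 21, and 18 and 1. Among all tested names 26.2% rose and 22.8% fell on this scaling, and 8.78% rose and 54.7% fell on the gene scaling.

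By base composition, 3 of 16 names without G or C rose and 4 fell (median -0.14), 9 and 45 of 93 names under 50% (median -0.50), 3 and 18 of 34 names at 50% (median -0.35), and 20 and 31 of 123 names over 50% (median -0.11). On the gene scaling the class richest in G and C thus lay nearest to 0. The class under 50% lay at the median of all repeat names. On the table's own TMM the medians were 0.36, -0.01, 0.15 and 0.39 in the same order. There the class under 50% lay nearest to 0 and the class over 50% farthest from it. Restricted to names with a mean of at least 50 counts per library, the medians on the gene scaling were -0.13, -0.40, -0.33 and -0.10. The Spearman correlation with the share of G and C was 0.27 over 266 names and 0.21 over the 179 with at least 50 counts. Abundance went with the fold change as well (Spearman 0.32 with mean CPM). Of 87 names with a mean under 50 counts 2 rose and 25 fell (2.30% and 28.7%). Of 69 names with a mean of 1000 or more 21 rose and 24 fell (30.4% and 34.8%). Among all tested repeat names 8.78% rose and 54.7% fell on the gene scaling. The other repeat names were not split by composition or abundance, so neither pattern is particular to simple repeats by these counts.

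**Figure D3:**
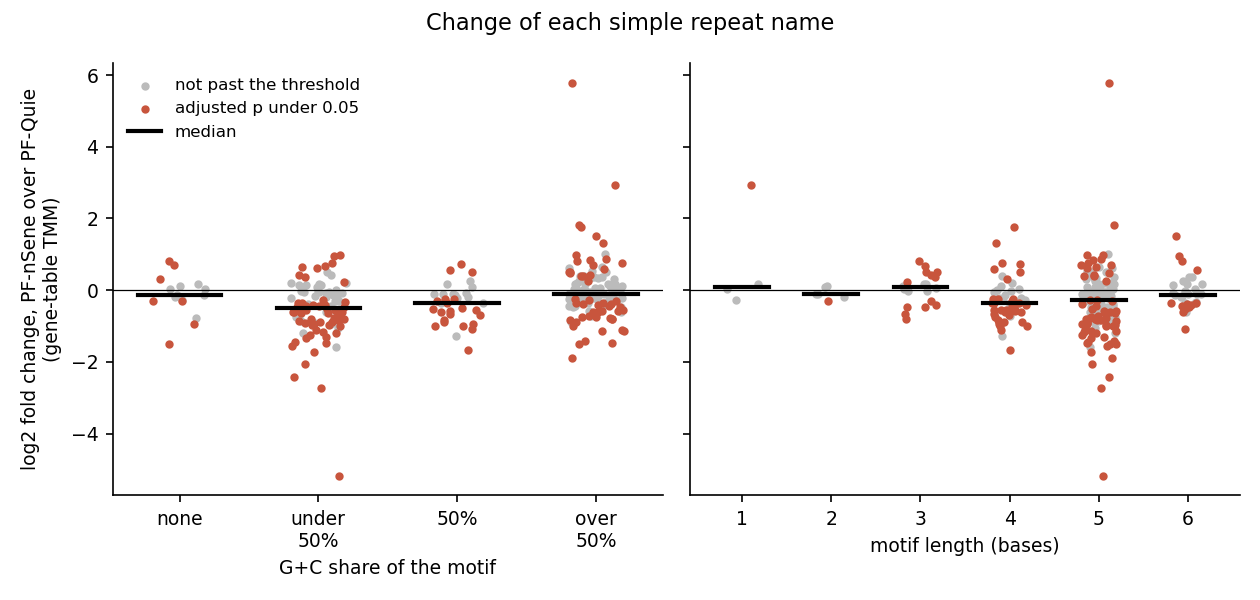
Log2 fold change of each of the 266 simple repeats on the gene-table TMM (y axis) by share of G and C in the motif (left) and by motif length in bases (right). Coloured points passed an adjusted p under 0.05, grey ones did not, and bars are class medians, from -0.50 to -0.11 by composition and from -0.35 to 0.10 by length; on the repeat table's own TMM the median over all 266 names was 0.25.

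Among single-base runs, (G)n stood apart. It measured 2.87, 2.61 and 2.40 CPM in the quiescent and 19.5, 19.0 and 21.0 CPM in the senescent libraries, so the groups were far from overlapping. It rose by a log2 fold change of 2.92 (SE 0.11, adjusted p = 8.2e-10). Its reverse complement (C)n was at 5.55, 4.46 and 4.33 and at 3.58, 3.31 and 4.95 CPM. These values overlapped and the difference did not pass (log2 fold change -0.27, adjusted p = 0.145; 0.22 on the table's own TMM); without senescent replicate 3 it was -0.47 with an adjusted p of 0.0049. The far more abundant (A)n and (T)n, the motifs of poly(A) and its complement, had log2 fold changes of 0.02 and 0.18 that did not pass on the gene scaling (adjusted p = 0.834 and 0.101), and both were negative on plain gene totals, at -0.28 and -0.11.

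Dinucleotides are the classic microsatellites of rodent genomes. The name (CA)n was at 729, 717 and 695 CPM in the quiescent and 667, 612 and 694 CPM in the senescent libraries, with senescent replicate 3 close to the quiescent range. It did not pass (log2 fold change -0.12, adjusted p = 0.194), and on the table's own TMM it rose by 0.39. Its complement (TG)n fell from 660, 658 and 625 CPM to 531, 480 and 551 CPM without overlap, by 0.32 on the log2 scale (adjusted p = 0.0042), and rose by 0.19 on the table's own TMM. The names (TC)n, (GA)n, (TA)n and (CG)n had log2 fold changes of -0.18, 0.09, 0.11 and -0.10 that did not pass on the gene scaling, and all 4 rose on the table's own TMM. The values of (TC)n and (CG)n were positive there, at 0.33 and 0.40, and on plain gene totals (GA)n and (TA)n were negative, at -0.21 and -0.19.

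The names with the largest increases all had motifs with over 50% G and C. The 5 highest were taken from 106 names that passed with a mean of at least 50 counts, and (G)n was the first of them. The level of (CGAG)n was 12.9, 13.1 and 14.3 CPM in the quiescent and 41.6, 43.0 and 51.3 CPM in the senescent libraries (log2 fold change 1.75, SE 0.11, adjusted p = 9.5e-08). That of (TCTCCC)n went from 35.2, 32.4 and 32.9 CPM to 92.4, 103 and 89.3 CPM (log2 fold change 1.50, SE 0.09). In neither name did any senescent library come near the quiescent range. The rarer (CACCT)n rose from 0.884, 0.835 and 0.623 CPM to 2.99, 2.80 and 2.42 CPM, by 1.81 (SE 0.16, adjusted p = 4.2e-06). In (CGGA)n senescent replicate 3 stood above the other 2, with 9.08, 8.38 and 15.0 CPM against 4.68, 4.12 and 4.33 CPM (log2 fold change 1.31, SE 0.19).

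The 5 lowest were all pentanucleotides. The name (ATAAG)n fell from 2.61, 2.73 and 2.51 CPM to 0.751, 0.682 and 0.457 CPM, by 2.06 on the log2 scale (SE 0.17, adjusted p = 2.4e-06). It was followed by (TCCTG)n with a log2 fold change of -1.51 and by (TTATA)n with -1.50. Next came (GGGGA)n at -1.42 and (AGTAG)n at -1.25. Of these names (GGGGA)n was the most abundant, at 7.86, 9.21 and 8.88 CPM in the quiescent and 2.99, 3.13 and 3.60 CPM in the senescent libraries. No library of one group entered the range of the other in any of the 5 names, which were picked among names that had passed. Of all 266 simple repeats 166 had groups that did not overlap. The share over all tested repeat names was not computed, so this count marks no trait of simple repeats. All 5 also fell on the table's own TMM, where (ATAAG)n was at -1.56.

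Telomeric motifs were scarce. The name (TTAGGG)n held 124, 136 and 110 counts in the quiescent and 53, 41 and 59 counts in the senescent libraries, or 1.17, 1.15 and 1.04 against 0.531, 0.458 and 0.573 CPM. It fell by 1.10 on the log2 scale (SE 0.16, adjusted p = 1.6e-04) and by 0.60 on the table's own TMM. The complement (CCCTAA)n was at 2.28, 2.07 and 2.10 against 1.79, 1.52 and 1.74 CPM. It fell by 0.35 (adjusted p = 0.033) on the gene scaling, whereas on the table's own TMM its log2 fold change was 0.15 and did not pass. That call did not hold in every setting. It was lost with the replicate number as a block (adjusted p = 0.074) and when any 1 library other than senescent replicate 3 was left out (adjusted p = 0.053 to 0.125).

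Triplets whose expansion is known from human repeat disorders were split by motif. The names (CGG)n, the unit of the fragile X repeat, and (CCG)n rose, from 171, 162 and 172 CPM to 223, 226 and 262 CPM in (CGG)n (log2 fold change 0.49, adjusted p = 4.3e-04) and by 0.42 in (CCG)n (adjusted p = 0.0016); on plain gene totals both kept the sign, at 0.20 and 0.13, but did not pass. The names (CAG)n and (CTG)n, the units of the Huntington and myotonic dystrophy repeats, had log2 fold changes of 0.16 and 0.12 that did not pass (adjusted p = 0.083 and 0.167), and that were -0.14 and -0.18 on plain gene totals. The Friedreich ataxia unit (GAA)n rose by 0.22 (adjusted p = 0.029; -0.07 on plain gene totals). This call was lost with the replicate block (adjusted p = 0.087) and without any of the 3 quiescent libraries or senescent replicate 1 (adjusted p = 0.074 to 0.123). Its complement (TTC)n fell from 62.5, 65.1 and 69.1 CPM to 47.2, 47.2 and 48.6 CPM, by 0.46 (adjusted p = 4.6e-04), with a log2 fold change of 0.05 on the table's own TMM. No name of the GGGGCC motif of C9orf72 was among the 266. These names count every genomic copy of a motif and no single disease gene.

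The most abundant names of 4, 5 and 6 bases were (GAAA)n, (TTTTG)n and (TCTCTG)n in this order. The pentanucleotide (TTTTG)n rose from 135, 139 and 136 CPM to 185, 183 and 180 CPM (log2 fold change 0.42, adjusted p = 4.7e-04). The hexanucleotide (TCTCTG)n did not pass, with overlapping levels of 82.6 to 94.6 CPM over the 6 libraries (log2 fold change -0.07; 0.44 on the table's own TMM). The tetranucleotide (GAAA)n fell by 0.42 on the gene scaling (adjusted p = 6.5e-04) and had a log2 fold change of 0.09 on the table's own TMM.

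A motif and its reverse complement have separate names, and the ratio of their counts within a library needs no scaling between libraries. The test of these ratios and the pairs described were chosen after the values were seen. Of 120 pairs 62 changed their ratio in edgeR's quasi-likelihood test with the library as a block (51.7%, adjusted p under 0.05 over the 120 pairs; 56 to 64 pairs when 1 library was left out). In 26 the change favoured the name richer in purines (A and G) and in 32 the name poorer in them, while in 4 both names held the same share of purines. The change exceeded 2-fold in 19 of the 62. In 31 the log2 fold changes of the 2 names on the gene scaling had opposite signs, and in 14 of them 1 name rose and the other fell past the threshold. Over the 120 pairs the Spearman correlation of the partners' log2 fold changes was 0.21 (Pearson 0.14), which describes pairs that share libraries and is given without a test.

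The widest change of ratio was that of (G)n over (C)n. It was 0.517, 0.584 and 0.553 in the quiescent and 5.45, 5.75 and 4.25 in the senescent libraries, a log2 change of 3.20 (SE 0.12). The ratio of (CGAG)n to (CTCG)n went from 0.527, 0.531 and 0.587 to 2.77, 2.51 and 3.29, a log2 change of 2.37 (SE 0.08). Its partner (CTCG)n had fallen on the gene scaling from 24.4, 24.7 and 24.4 CPM to 15.0, 17.2 and 15.6 CPM, but did not pass on the table's own TMM (log2 fold change -0.10, adjusted p = 0.478). In both pairs the name with fewer counts in the quiescent libraries had more counts than its partner in the senescent ones.

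Other pairs turned the opposite way, toward the pyrimidine-rich name. The ratio of (GAAA)n to (TTTC)n was 1.56, 1.58 and 1.53 in the quiescent and 0.702, 0.703 and 0.679 in the senescent libraries, a log2 change of -1.17 with an SE of only 0.04. Here (TTTC)n had risen from 53.8, 56.3 and 55.1 CPM to 93.0, 87.3 and 96.1 CPM while (GAAA)n fell on the gene scaling. The ratio of (GGGAGA)n to (TCTCCC)n changed by -1.96, that of (AGGTG)n to (CACCT)n by -2.40 and that of (GGGGA)n to (TCCCC)n by -1.83 on the log2 scale. For (TAA)n over (TTA)n the change was -1.13. The replicates spread most in the rarer pairs, with senescent ratios of 0.265, 0.195 and 0.466 for (AGGTG)n over (CACCT)n. The groups did not overlap in any of the 7 pairs named so far, which were picked with their changes known.

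Smaller but steady changes were seen in the abundant names. The ratio of (CA)n to (TG)n was 1.11, 1.09 and 1.11 in the quiescent and 1.26, 1.27 and 1.26 in the senescent libraries, a log2 change of 0.20 (SE 0.02, adjusted p = 3.0e-12). That of (GA)n to (TC)n changed by 0.28 and that of (GAA)n to (TTC)n by 0.68, while (TGG)n over (CCA)n changed by 0.79 and (CAAAAA)n over (TTTTTG)n by 0.81. The telomeric ratio of (TTAGGG)n to (CCCTAA)n fell from 0.512, 0.553 and 0.493 to 0.296, 0.302 and 0.330, a log2 change of -0.75 (SE 0.18, adjusted p = 8.8e-04). For (CAG)n over (CTG)n the log2 change was 0.03 (SE 0.03) and did not pass.

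**Figure D4:**
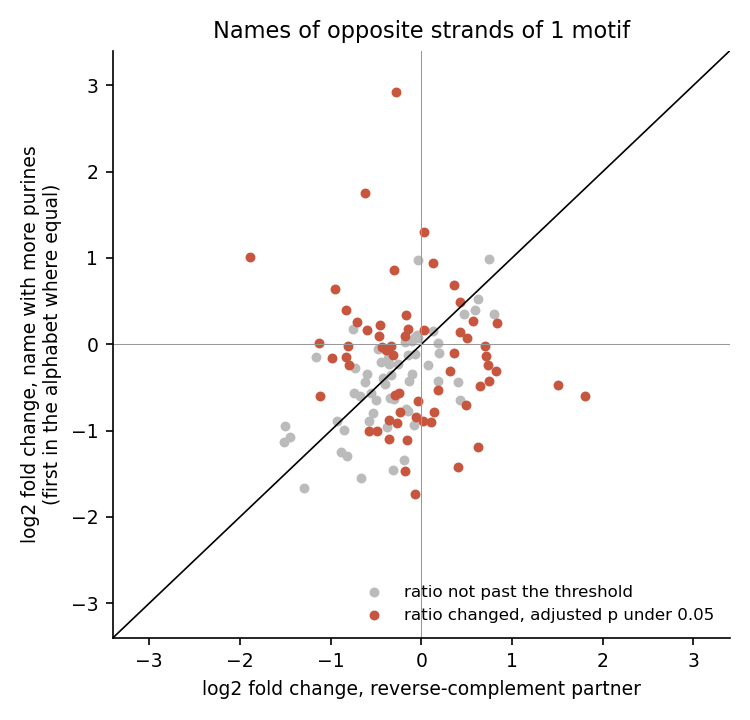
Log2 fold change of the name richer in purines (y axis) against that of its reverse-complement partner (x axis) for the 120 pairs, gene-table TMM, with the line of equal change. In the 12 pairs with equal purine shares the name first in the alphabet is on the y axis. Coloured points are the 62 pairs whose ratio changed past an adjusted p of 0.05; the highest point is (G)n at 2.92 with (C)n at -0.27.

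To see which transcripts carry these motifs, uninterrupted runs of at least 20 bases were searched in the transcripts of GENCODE M21 (GRCm38). A repeat name was read on the + strand of the genome, which the deposited table does not state, so a gene on the - strand carries the complement in its RNA. For 225 of the 266 names some gene held a run, and for 201 at least 1 such gene was expressed enough to be tested. The most abundant tested gene of some names is shown with its run in the direction of the transcript, the run or its first bases in capitals and the flanking bases in lower case.
Map4k4, chr1:40025068-40025090, + strand, exon 31 of 31, 3' UTR, for (CGAG)n: ctcCGAGCGAGCGAGCGAGCGAGCGActg
Scd2, chr19:44305849-44305868, + strand, exon 6 of 6, 3' UTR, for (CTCG)n: cttGCTCGCTCGCTCGCTCGCTCcgt
Thbs1, chr2:118125935-118125964, + strand, exon 22 of 22, 3' UTR, for (TTTC)n: cctTTTCTTTCTTTCTTTCTTTCTTTC
Il6st, chr13:112509160-112509197, + strand, exon 17 of 17, 3' UTR, for (CCA)n: ctgCCACCACCACCACCACCACCACCA
All 4 runs shown lie in the last exon, in the 3' untranslated region. Among runs not shown, those of Svep1 for (GGGAGA)n and of Wls for (CCCTAA)n lie in transcripts annotated as noncoding.

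The genes described next were chosen after their values were seen, and each of the 6 differed between the groups in the direction of the name it carries. Grem1, a secreted antagonist of bone morphogenetic proteins, rose from 85.0, 85.9 and 90.2 CPM to 266, 279 and 269 CPM (log2 fold change 1.64), beside 1.50 for (TCTCCC)n. Thbs1, which encodes the matrix glycoprotein thrombospondin, rose by 2.70 beside 0.74 for (TTTC)n.

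Other genes of this kind fell. Scd2, a stearoyl-CoA desaturase, went from 449, 428 and 430 CPM to 85.7, 90.7 and 78.9 CPM (log2 fold change -2.36), beside -0.62 for (CTCG)n on the gene scaling. Cygb, which encodes cytoglobin, fell by 3.00 on the log2 scale beside -1.42 for (GGGGA)n, and Il6st, the signalling receptor subunit shared by interleukin 6 family cytokines, fell by 2.08 beside -0.81 for (CCA)n (-0.30 on the table's own TMM). For (CGAG)n the kinase gene Map4k4 rose by 0.70, less than the name's 1.75. The tested genes of the name and of its complement moved apart in the last case, with log2 ratios of 0.61 for 4 genes with (CGAG)n and -1.05 for 19 genes with (CTCG)n.

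Not every name went with its gene. For (TTAGGG)n the only tested gene was Xkrx, at 0.0564 to 0.0755 CPM in the quiescent and 0.156 to 0.200 CPM in the senescent libraries, which rose by 1.35 while the name fell. For (CCCTAA)n the most abundant of 4 tested genes was Wls, the Wnt carrier, with a log2 fold change of -0.03 that did not pass. The most abundant gene for (GAAA)n was Mmp14, a membrane-bound matrix metalloproteinase, with -0.02, and it did not pass either. For (ATAAG)n and (AGTAG)n no gene held a run, and for (TCCTG)n and (TTATA)n no tested gene did.

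Over the 153 names with a mean of at least 50 counts and tested genes on both strands, the Spearman correlation between a name's log2 fold change and the log2 ratio of its genes was 0.36 (Pearson 0.41) for runs read on the strand of the name. Against the genes of the complement it was -0.06 (Pearson -0.05). Over the 99 of these names with 1 to 20 tested genes it was 0.37 and -0.08. The points share libraries and strand partners, the search was devised after the values were seen, and the correlations are given as a description. The repeat table does not locate its reads, and the annotation of transcripts leaves out introns and intergenic copies, so how many reads of a name lay in these genes was not measured.

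**Figure D5:**
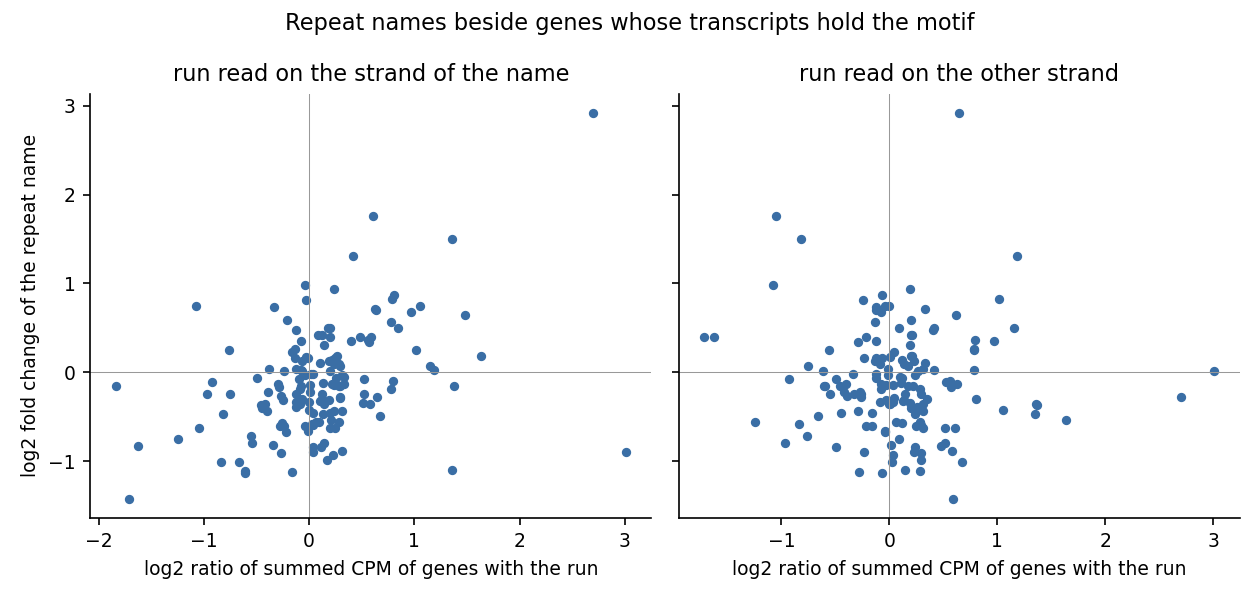
Log2 fold change of a repeat name (y axis, gene-table TMM) against the log2 ratio of summed CPM, senescent over quiescent, of the tested genes whose transcripts hold at least 20 bases of the motif (x axis), for 153 names. Left, run on the strand of the name (Spearman 0.36); right, run on the other strand (Spearman -0.06).

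Genes that copy, bind or unwind repeats were described from 4 lists, beside 74.5% of 14065 tested genes that passed, 36.7% higher and 37.8% lower, with a median of -0.02. Of 12 mismatch repair genes 1 rose and 9 fell (median -0.36). The gene that rose was Msh3, whose protein recognises slipped loops, by 0.68, and the largest decreases were those of the ligase gene Lig1 and the exonuclease gene Exo1, with -1.38 and -1.32. Of 14 telomere factors 1 rose and 7 fell (median -0.26), and 12 fell on plain gene totals. Dkc1, which encodes dyskerin of the telomerase complex, rose by 0.86. The helicase gene Rtel1 fell by 1.01 and Terf1, which binds TTAGGG repeats, by 0.50. The catalytic subunit gene Tert did not pass (-0.22, adjusted p = 0.154).

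Of 29 genes for proteins that bind repeat RNA 15 rose and 8 fell (median 0.12), whereas 4 rose and 15 fell on plain gene totals. Elavl1, which binds U-rich RNA, rose from 13.0 ± 0.330 to 32.8 ± 4.42 CPM (SD, n = 3; log2 fold change 1.33, adjusted p = 2.9e-07), and Celf1, which binds GU-rich RNA, rose by 1.19. Celf2 and Mbnl3, of the CELF and muscleblind families of splicing regulators, fell by 1.14 and 1.44. Of 10 tested R-loop and G-quadruplex helicases and nucleases 3 rose and 5 fell (median -0.16), whereas none rose on plain gene totals and 1 rose without quiescent replicate 1. Dhx9 and Dhx36, RNA helicases that unwind G-quadruplexes, rose by 0.34 and 0.17. The helicase genes Pif1 and Wrn fell by 2.78 and 1.52.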

How the data were processed

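For 3 quiescent and 3 senescent libraries the authors deposited unnormalised whole-number counts, 1 table by gene symbol and 1 by repeat name. Per the labels' protocols, ribosomal RNA was depleted from total RNA and directional libraries were read as 100 bp pairs. The submitters' processing notes name mm10, edgeR 3.32.1 and limma 3.46.0. The sources used here do not give the aligner, the counter, strand use or the treatment of multiply mapped reads. Reads of repeats match many places, and if strand was not used a name gives only the orientation of the genomic copy.

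Repeat names with a summed count of at least 12 entered a test in edgeR 4.0.16 and R 4.3.3 (robust quasi-likelihood, Benjamini-Hochberg over all tested names, threshold 0.05), with library sizes from the gene table's TMM. The SE of a log2 fold change is its size over the root of F. Genes were filtered with filterByExpr at a minimum count of 10. The test was checked on simulated counts. Alternatives were other scalings, filters and thresholds, DESeq2 1.42.0, voom of limma 3.58.1, the replicate block and each library left out. Reads were counted without molecular identifiers, so PCR copies of a fragment may be counted more than once.

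The members and lists were chosen with earlier results of these data known. Names given with values were the 6 most abundant, the 5 highest and 5 lowest among those that passed with a mean of at least 50 counts, motifs of 1 or 2 bases, telomeric motifs, the CAG, GAA, CGG and GGGGCC units, and the most abundant of each length from 3 to 6. Genes were up to 2 risen and 2 fallen per list at a mean log2 CPM of at least 0. Other names, the strand pairs, the motif search, Tert and the closing observations were chosen after their values were seen.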

Additional observations from a re-analysis of the deposited data

How the results depend on the processing

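The counts of simple repeats that rose (35) and fell (98) on the gene scaling depended on the scaling. They were 110 and 31 on the repeat table's own TMM and likewise without its ribosomal RNA names, and 118 and 28 with own TMM computed from the names that are not simple repeats. On plain gene totals 19 rose and 140 fell. With the names of a motif unit merged, 24 rose and 51 fell of 146 units, a smaller number of rows. DESeq2 gave 35 and 86, voom 34 and 99, a summed count of at least 60 gave 37 and 93, and an adjusted p under 0.01 gave 26 and 66. Leaving out 1 library gave 27 to 50 that rose and 74 to 114 that fell; the extremes were 50 without senescent replicate 2, and 114 without senescent replicate 3.

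The log2 ratio of summed levels was 0.54, 0.54 and 0.60 on the 3 own-TMM scalings (in the order above) and -0.27 on plain gene totals, and -0.0040 to 0.069 with 1 library left out. For motifs without G or C these 4 values were 0.62, 0.62, 0.69 and -0.18; under 50%, 0.62, 0.62, 0.68 and -0.19; at 50%, 0.33, 0.33, 0.39 and -0.47; over 50%, 0.67, 0.67, 0.73 and -0.14.

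Of 510 values of 30 named repeats under 17 settings, 432 kept direction and call, 14 lost the call, 29 gained it and 35 changed sign, 27 of these on the 3 own-TMM scalings. There the values were 0.22, 0.22 and 0.29 for (C)n, 0.39, 0.39 and 0.45 for (CA)n, 0.15, 0.15 and 0.21 for (CCCTAA)n, 0.40, 0.40 and 0.46 for (CG)n, 0.088, 0.089 and 0.15 for (GAAA)n, 0.33, 0.33 and 0.39 for (TC)n, 0.44, 0.44 and 0.51 for (TCTCTG)n, 0.19, 0.19 and 0.25 for (TG)n, and 0.051, 0.052 and 0.11 for (TTC)n. On plain gene totals they were -0.28 for (A)n, -0.14 for (CAG)n, -0.18 for (CTG)n, -0.21 for (GA)n, -0.074 for (GAA)n, -0.11 for (T)n and -0.19 for (TA)n; with 1 library left out, (A)n ran from -0.0046 (without quiescent replicate 1) to 0.044. Of repeat RNA-binding genes 4 rose and 15 fell on plain gene totals, of telomere factors 12 fell, and of R-loop helicases 0 rose (1 to 3 with 1 library left out).

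With the replicate number as a block 32 simple repeats rose and 90 fell. Same-numbered samples correlated at 0.05, -0.01 and 0.06 over genes and at 0.05, 0.03 and -0.04 over all repeat names, so the numbers were not taken to pair the samples; over the 179 abundant simple repeats the values were 0.12, 0.13 and 0.12. Depth limits the 87 names with a mean under 50 counts.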

Other observations

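Motifs that hold a CpG, the dinucleotide that is methylated in mammalian DNA, formed a group of 51 simple repeats, of which 14 rose and 7 fell on the gene scaling (median log2 fold change 0.09). Of 77 names with over 50% G and C but no CpG, 6 rose and 26 fell (median -0.22). That is 27.5% higher and 13.7% lower with CpG, and 7.79% and 33.8% without. Among all tested repeat names 8.78% rose and 54.7% fell. On the repeat table's own TMM the counts were 30 and 3, and 34 and 8, beside 26.2% higher and 22.8% lower among all tested names. Some motifs with CpG, such as that of (TTACG)n, do not have over 50% G and C. The split was chosen with the values known and the difference between these groups was not tested.

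Some rare names held most or all of their counts in the libraries of 1 group. The names (CGAAG)n and (CTAAG)n reached the minimum summed count through that group alone, so no test result is printed for them. Both are still included in the counts of names that rose and fell. So are other rare names that may have reached the minimum in this way. The name (CGAAG)n held 1, 0 and 0 counts in the quiescent and 17, 18 and 33 in the senescent libraries. The name (CTAAG)n held 6, 5 and 3 counts in the quiescent libraries and 0 in each senescent one. The name (TTACG)n fell from 58, 65 and 83 counts to 6, 8 and 13, by 2.74 on the log2 scale. Its only tested gene with a run of at least 20 bases was Ablim3, an actin-binding LIM protein gene, which fell by 2.76.

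Senescent replicate 3 lay above the other senescent libraries by a median of 0.20 on the log2 scale over the 179 names with a mean of at least 50 counts, and by 0.26 for motifs with over 50% G and C. Senescent replicate 2 differed from the others by a median of -0.15 over the same names.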
